A study of Mus musculus with 14 samples.

Results

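The genes described here make leukotrienes, prostaglandins and thromboxane, the signalling lipids called eicosanoids. They are the 10 lines of a mouse count table whose gene symbol is Alox5, Alox5ap, Lta4h, Ltc4s, Mgst2, Ptgs1, Ptgs2, Hpgds, Tbxas1 or Alox12, out of 54532 lines, and no symbol of the 10 is repeated. RNA was sequenced in bulk from bone marrow cells of C57BL/6 mice sorted into 2 populations. LT-HSC are the stem cells that sustain blood formation over the long term, and GMP are the progenitors of granulocytes and monocytes. The 4 groups were LT-HSC of AML1-ETO mice (n = 3), LT-HSC of control mice (n = 4), GMP of AML1-ETO mice (n = 3) and GMP of control mice (n = 4). AML1-ETO mice carried Runx1-Runx1t1, the fusion gene of the t(8;21) translocation, whose expression was switched on through Mx1-Cre. Mx1-Cre is a recombinase under an interferon-responsive promoter, which is active in other cells besides stem cells. Poly(I:C), the interferon inducer that activates it, is entered for control and AML1-ETO samples alike, as 4 doses of 5 mg/kg. Control mice are given as WT, and whether they carry Mx1-Cre is not said, so effects of the fusion and of Cre cannot be told apart. A pair of library kits is named for all samples without saying which libraries each served, so a difference in kit between groups was not tested. The labels give neither the sort markers nor the age or sex of the mice, and they do not say that libraries came from separate mice. P-values therefore rest on the spread among these libraries, and that spread may be technical.

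Eicosanoids are made from arachidonic acid, a fatty acid that phospholipases release from membranes. On the leukotriene branch, 5-lipoxygenase (Alox5) works with its membrane partner FLAP (Alox5ap) to make leukotriene A, which Lta4h converts to the neutrophil attractant leukotriene B and Ltc4s joins to glutathione to make leukotriene C. Mgst2, a microsomal glutathione transferase, can carry out that last step too. On the prostanoid branch, the cyclooxygenases Ptgs1 (constitutive) and Ptgs2 (inducible) make prostaglandin H, from which Hpgds makes prostaglandin D and Tbxas1 makes thromboxane, the platelet-activating prostanoid. Alox12, the platelet-type 12-lipoxygenase, starts a separate branch. In blood, Ltc4s and Hpgds are known from mast cells and basophils, and Ptgs1, Tbxas1 and Alox12 from megakaryocytes and platelets.

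The libraries held 13210952 to 19403864 counts. Levels are in CPM, TMM-scaled counts relative to the library total, and levels are compared between genes per kilobase of merged exons. In the check of the labels, Runx1t1, the fusion partner, was at 85.6 to 164 CPM in AML1-ETO LT-HSC, against 0 to 18.2 CPM in control LT-HSC. Runx1t1 was at 26.0 to 45.7 CPM in AML1-ETO GMP, against 1.69 to 2.74 CPM in control GMP, and it was called higher in both cell types. The summed CPM of 10 LT-HSC markers was 236 to 459 in AML1-ETO GMP and 331 to 381 in control GMP, against 1574 to 1898 in AML1-ETO LT-HSC and 834 to 2027 in control LT-HSC. The summed CPM of 11 GMP markers was 21807 to 36367 in AML1-ETO GMP and 29140 to 33380 in control GMP, against 2892 to 3388 in AML1-ETO LT-HSC and 631 to 1255 in control LT-HSC. The 12 mast cell and basophil markers summed to 8695 to 11357 CPM in AML1-ETO LT-HSC, against 17.1 to 72.0 CPM in control LT-HSC, and 8 B cell markers to 113 to 643 CPM, against 13063 to 77160 CPM. Control LT-HSC replicate 3 stood apart: of 7782 genes whose median over the samples reached 20 CPM, it held 109 under 0.2 CPM, against 2 to 29 in the other libraries. The number of genes with any read also differed between groups. It was 16427 to 18106 in AML1-ETO LT-HSC, against 12106 to 15329 in control LT-HSC. In GMP the order was the other way, with 13473 to 14887 in AML1-ETO and 18747 to 19508 in control mice. The part of this difference in the results below that rest on 0 reads was not tested. In bulk samples, fewer cells of a type and less RNA per cell cannot be told apart, which touches every level below.

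All 10 members are protein-coding genes, placed here on the mm10 build by the GENCODE M21 annotation. Those on the leukotriene branch are Alox5 (chr6:116410077-116461178, minus strand), Alox5ap (chr5:149264767-149288153, plus), Lta4h (chr10:93453411-93484875, plus), Ltc4s (chr11:50236461-50238616, minus) and Mgst2 (chr3:51660360-51682677, plus). Those on the prostanoid branch are Ptgs1 (chr2:36230426-36252272, plus), Ptgs2 (chr1:150100031-150108227, plus), Hpgds (chr6:65117293-65144908, minus) and Tbxas1 (chr6:38875404-39084585, plus). Alox12 spans chr11:70241457-70255353 on the minus strand. Whether the counting used strand is not given in the sources used here. Reads of an antisense gene and of the member it overlaps therefore cannot be told apart. An antisense transcript shares 26.4% of the exon length of Ltc4s, another 13.3% of that of Alox5ap, and further ones 3.81% of Ptgs1 and 1.58% of Tbxas1.

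RefSeq promoter windows of 300 bases, from 250 before to 50 after the transcription start, were found for 9 of the 10 members. AML1-ETO keeps the DNA-binding part of RUNX1, so the windows were searched on both strands for the RUNX core TGTGGT, the ETS core AGGAAG, the GATA core AGATAA and the E-box CAGCTG, none of which contains the letters of another. The windows of the 3 members with RUNX matches whose groups stood apart below are shown, with those of Tbxas1 and Alox12, which also stood apart from their controls in LT-HSC but hold no RUNX match. They are from GRCm38.p6, written 5′ to 3′ on the strand of the gene, and capitals mark the RUNX core on either strand.
Ltc4s, chr11:50238483-50238782, minus strand: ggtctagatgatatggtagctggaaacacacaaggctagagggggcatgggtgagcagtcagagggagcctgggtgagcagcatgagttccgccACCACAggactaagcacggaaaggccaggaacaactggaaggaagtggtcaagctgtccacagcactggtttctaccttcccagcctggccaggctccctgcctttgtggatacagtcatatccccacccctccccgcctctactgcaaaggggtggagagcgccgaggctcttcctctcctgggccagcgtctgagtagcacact
Mgst2, chr3:51660929-51661228, plus strand: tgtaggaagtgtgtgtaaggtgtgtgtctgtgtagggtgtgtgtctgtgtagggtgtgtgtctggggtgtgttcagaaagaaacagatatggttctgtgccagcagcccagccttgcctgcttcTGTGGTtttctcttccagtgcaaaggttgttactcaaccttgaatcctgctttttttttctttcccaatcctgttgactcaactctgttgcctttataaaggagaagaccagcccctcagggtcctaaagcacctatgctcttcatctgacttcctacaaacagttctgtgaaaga
Hpgds, chr6:65144681-65144980, minus strand: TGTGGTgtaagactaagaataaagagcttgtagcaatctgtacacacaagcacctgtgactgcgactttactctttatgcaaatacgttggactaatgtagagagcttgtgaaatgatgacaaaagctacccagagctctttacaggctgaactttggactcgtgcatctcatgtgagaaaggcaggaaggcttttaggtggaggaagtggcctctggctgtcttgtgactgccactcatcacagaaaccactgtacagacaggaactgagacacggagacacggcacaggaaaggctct
Tbxas1, chr6:38918736-38919035, plus strand: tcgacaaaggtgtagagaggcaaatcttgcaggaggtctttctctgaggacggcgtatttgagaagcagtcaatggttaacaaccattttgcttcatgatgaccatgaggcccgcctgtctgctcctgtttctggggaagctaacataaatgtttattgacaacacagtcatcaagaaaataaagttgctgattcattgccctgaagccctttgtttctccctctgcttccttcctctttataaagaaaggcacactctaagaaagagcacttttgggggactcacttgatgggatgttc
Alox12, chr11:70255321-70255620, minus strand: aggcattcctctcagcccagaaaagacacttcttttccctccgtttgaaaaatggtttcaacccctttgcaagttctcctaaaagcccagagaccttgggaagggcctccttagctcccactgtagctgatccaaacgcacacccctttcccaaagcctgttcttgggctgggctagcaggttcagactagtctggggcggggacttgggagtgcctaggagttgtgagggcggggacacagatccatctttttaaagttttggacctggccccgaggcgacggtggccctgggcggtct

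The RUNX core was present in 4 of the 9 windows, those of Ltc4s, Mgst2, Ptgs2 and Hpgds, and in 16.8% of 32851 promoter windows of the same length. It began 156 bases before the start in Ltc4s, 126 in Mgst2, 197 in Ptgs2 and 250 in Hpgds. The ETS core was present in 6 of the 9, Ltc4s, Mgst2, Ptgs1, Ptgs2, Hpgds and Tbxas1, and in 35.4% of all windows. The GATA core and the E-box were in none of the 9, and in 11.2% and 16.3% of all windows. A match is a description of these letters and does not show that a factor binds there. The RefSeq starts of Ltc4s, Mgst2, Hpgds and Tbxas1 lie inside the gene as GENCODE M21 draws it. Other starts of these genes are not shown, and the distances above are from the RefSeq start alone.

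**Figure D1:**
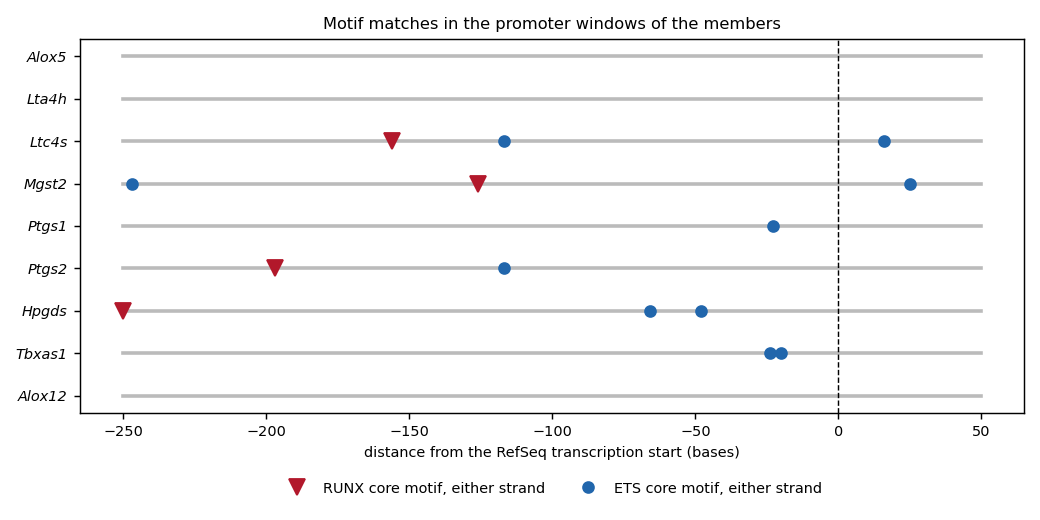
Matches to the RUNX core (triangles) and the ETS core (circles) on either strand in the 300-base RefSeq promoter windows of 9 members, with the distance from the transcription start in bases on the x axis. A RUNX core lies in the windows of Ltc4s, Mgst2, Ptgs2 and Hpgds, and no match of either kind in those of Alox5, Lta4h and Alox12.

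Per kilobase of exon, Alox5ap and Lta4h led the pathway in each group except control LT-HSC, where Ptgs1 stood between them, and AML1-ETO LT-HSC, where Mgst2 did. In AML1-ETO LT-HSC the mean levels were 109.7 CPM per kilobase for Alox5ap, 20.8 for Mgst2, 15.9 for Lta4h and 13.6 for Ptgs1. The order ran on through Alox12 at 8.25, Ltc4s at 4.19, Tbxas1 at 1.73, Hpgds at 1.67 and Ptgs2 at 1.09 to Alox5 at 0.628 CPM per kilobase. Only the gaps below Alox5ap and between Ltc4s and Tbxas1 were free of overlap between neighbours. In control LT-HSC, Alox5ap averaged 28.0 CPM per kilobase, Ptgs1 21.4, Lta4h 20.2, Tbxas1 14.8 and Mgst2 6.07, and every other member was under 3. There the gap between Tbxas1 and Mgst2 was the only one in the order without overlap.

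In GMP the order was led by Lta4h, at 139 CPM per kilobase in AML1-ETO and 141 in control mice, followed by Alox5ap at 74.3 in AML1-ETO and 65.0 in control mice. In AML1-ETO GMP, Ptgs1 averaged 27.1 CPM per kilobase, Mgst2 17.3, Alox12 13.6, Tbxas1 7.72, Alox5 7.27, Ptgs2 3.15, Hpgds 3.10 and Ltc4s 2.00. From Ptgs1 downwards, neighbours in that order overlapped. In control GMP, Mgst2 averaged 11.8, Ptgs1 11.2, Alox5 6.28, Tbxas1 2.55, Ptgs2 1.43, Ltc4s 0.451, Hpgds 0.0929 and Alox12 0.0227 CPM per kilobase. There only Mgst2 with Ptgs1 and Hpgds with Alox12 overlapped. In all 4 groups the mean levels of Alox5ap and Lta4h per kilobase were well above that of Alox5, the enzyme between them on the leukotriene branch.

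**Figure D2:**
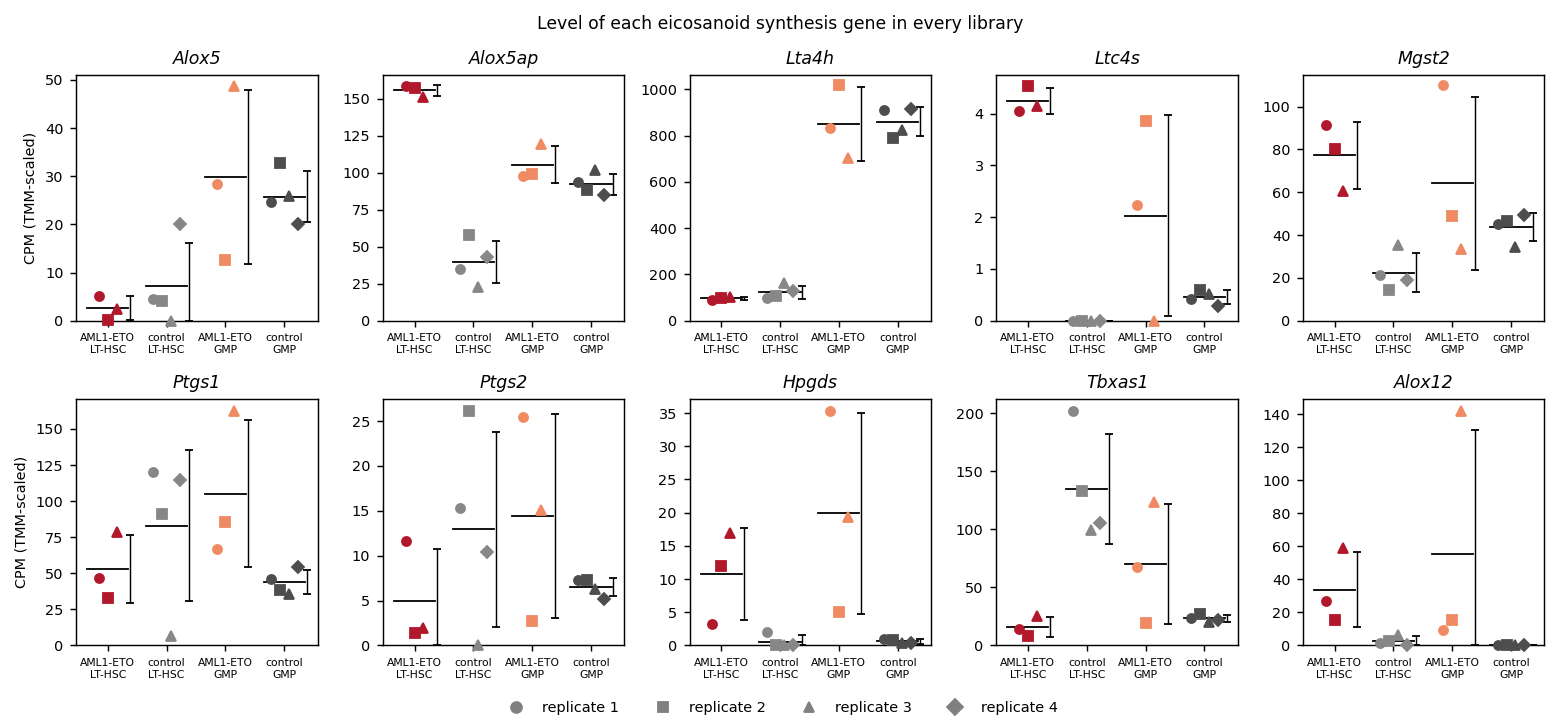
CPM (TMM-scaled) of each member in all 14 libraries, a panel per gene with its own axis. Points are libraries, with a circle, square, triangle and diamond for replicates 1 to 4, horizontal lines are group means and brackets the mean ± SD, stopped at 0. Alox5ap and Mgst2 sit higher and Tbxas1 lower in AML1-ETO than in control LT-HSC, and Lta4h is high in all GMP libraries.

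The effect of AML1-ETO in LT-HSC was asked first. Of the 10 members, all of them tested, 3 rose in AML1-ETO LT-HSC (Alox5ap, Mgst2 and Ltc4s) and 1 fell (Tbxas1), by edgeR's quasi-likelihood test with Benjamini-Hochberg adjustment over all genes, called at an adjusted p under 0.05. Over all 14589 genes tested, 12.3% were called, 7.59% as higher and 4.69% as lower. The members that rose belong to leukotriene synthesis and the one that fell makes thromboxane. The log2 fold changes of 5 members were above 0 and those of 5 below, beside 7522 above and 7067 below over all genes tested. Their median was 0.82, against 0.03 over all genes tested. No member was near that median, which falls in the gap between Lta4h at −0.25 and Mgst2 at 1.88.

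Alox5ap, the FLAP protein that presents arachidonic acid to 5-lipoxygenase, was at 158, 157 and 151 CPM in AML1-ETO LT-HSC, against 35.01, 57.6, 23.1 and 43.0 CPM in control LT-HSC. The AML1-ETO libraries lay close together and far above every control. The mean was 156 ± 3.77 CPM in AML1-ETO LT-HSC and 39.7 ± 14.5 CPM in control LT-HSC (SD, n = 3 and 4), a log2 fold change of 2.07 ± 0.29 (SE; edgeR adjusted p = 0.00443). Alox5 itself was low and scattered, at 5.20, 0.154 and 2.38 CPM in AML1-ETO LT-HSC, against 4.43, 4.16, 0 and 20.1 CPM in control LT-HSC. Its groups overlapped and it was not called (edgeR adjusted p = 0.725).

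Ltc4s, leukotriene C synthase, had 68, 59 and 68 reads in AML1-ETO LT-HSC, which is 4.06, 4.53 and 4.16 CPM, and 0 reads in all 4 control LT-HSC libraries. With 0 reads in the controls, which allow up to 0.0486 CPM at 3 counts over the group, the level was at least 87.5-fold higher in AML1-ETO LT-HSC (edgeR adjusted p = 0.0279). That bound covers counting error only. In AML1-ETO GMP, replicate 3 had 0 Ltc4s reads beside 34 and 59 in the other libraries. Leaving out AML1-ETO LT-HSC replicate 1, 2 or 3 raised its adjusted p to between 0.110 and 0.147, so the call was lost each time. Mgst2, which can also make leukotriene C, was at 91.3, 79.9 and 60.4 CPM in AML1-ETO LT-HSC, against 21.5, 14.3, 35.5 and 18.8 CPM in control LT-HSC. The groups did not overlap, and the log2 fold change was 1.88 ± 0.34 (SE; edgeR adjusted p = 0.0109). Without AML1-ETO LT-HSC replicate 1 or 2 the adjusted p of Mgst2 was 0.0644 or 0.0684.

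Lta4h, which makes leukotriene B, was at 89.3, 97.6 and 104 CPM in AML1-ETO LT-HSC, against 96.7, 109, 162 and 126 CPM in control LT-HSC. These ranges overlapped, with a log2 fold change of −0.25 ± 0.20 (SE; edgeR adjusted p = 0.534). Of the leukotriene branch in LT-HSC, then, FLAP and both leukotriene C enzymes were called higher, and Alox5 and Lta4h were not called.

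Tbxas1, thromboxane synthase, was at 13.98, 7.99 and 25.3 CPM in AML1-ETO LT-HSC, against 202, 133, 99.0 and 105 CPM in control LT-HSC. Every AML1-ETO library was below every control, with a log2 fold change of −3.01 ± 0.45 (SE; edgeR adjusted p = 0.00603). The mean was 15.8 ± 8.80 CPM in AML1-ETO LT-HSC and 135 ± 47.2 CPM in control LT-HSC (SD, n = 3 and 4). Ptgs1, the cyclooxygenase that feeds it, was at 46.6, 32.8 and 78.8 CPM in AML1-ETO LT-HSC, against 120.2, 90.8, 6.56 and 114 CPM in control LT-HSC. Its low control is replicate 3, the library that stood apart, and the groups overlapped through it (log2 fold change −0.57 ± 0.77, SE; edgeR adjusted p = 0.742). Without that library the log2 fold change of Ptgs1 was −0.96 (edgeR adjusted p = 0.0838).

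Ptgs2, the inducible cyclooxygenase, was at 11.6, 1.38 and 1.96 CPM in AML1-ETO LT-HSC, against 15.3, 26.1, 0 and 10.4 CPM in control LT-HSC, with overlap and no call (edgeR adjusted p = 0.707). Hpgds, prostaglandin D synthase, was at 3.23, 11.98 and 16.9 CPM in AML1-ETO LT-HSC, against 2.04, 0, 0 and 0 CPM in control LT-HSC. Alox12 was at 26.6, 15.4 and 59.1 CPM in AML1-ETO LT-HSC, against 1.75, 2.39, 6.56 and 0 CPM in control LT-HSC. For both genes the AML1-ETO and control ranges did not overlap, yet neither passed the test. The log2 fold changes were 4.40 ± 1.99 for Hpgds (SE; edgeR adjusted p = 0.209) and 3.75 ± 1.18 for Alox12 (edgeR adjusted p = 0.0768). Hpgds was called without control LT-HSC replicate 1, its single control library with reads (edgeR adjusted p = 0.0209), which leaves the controls at 0. Alox12 was called without control LT-HSC replicate 3 or 4 (edgeR adjusted p = 0.0277 and 0.0419), and with DESeq2 on all 7 libraries (adjusted p = 0.00801).

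In all, 5 members lay wholly above and 1 wholly below the controls in LT-HSC, against 15.5% and 13.0% of all genes tested. The calls for Alox5ap and Tbxas1 held without any 1 of the 7 libraries. Without control LT-HSC replicate 3 the log2 fold changes were 1.88 for Alox5ap, 2.17 for Mgst2 and −3.14 for Tbxas1, and Ltc4s was called too.

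Summed markers of mast cells and basophils were also higher in AML1-ETO LT-HSC, and most of that sum, 8695 to 11357 CPM, came from Cpa3. In AML1-ETO LT-HSC, 10 to 12 of the 12 markers reached 1 CPM, against 3 to 7 in control LT-HSC, and Cpa3, a mast cell carboxypeptidase, was at 6929 to 9413 CPM, against 5.25 to 34.7 CPM. Ms4a2, a chain of the IgE receptor, was at 148 to 171 CPM in AML1-ETO LT-HSC, against 0 to 1.90 CPM in control LT-HSC, and Fcer1a was at 0 in all 4 controls. Tpsab1 was at 0 in 2 of the 3 AML1-ETO LT-HSC libraries. Prss34 was at 0, 0.0768 and 1.04 CPM in AML1-ETO LT-HSC and at 0 in all 4 control LT-HSC libraries. The part of these cells or genes in the rise of Alox5ap, Ltc4s and Mgst2 was not tested. Beside the fall of Tbxas1, the 12 megakaryocyte and platelet markers summed to 608 to 1692 CPM in AML1-ETO LT-HSC and 649 to 1241 CPM in control LT-HSC. Within that list Pf4 was at 1.08 to 12.3 CPM in AML1-ETO LT-HSC, against 31.0 to 134 CPM in control LT-HSC, while Treml1 was at 53.2 to 201 CPM, against 3.61 to 20.9 CPM. Gp1bb was at 0 in every library. Monocyte and macrophage markers summed to 17.1 to 28.7 CPM in AML1-ETO LT-HSC, against 123 to 429 CPM in control LT-HSC. Erythroid markers summed to 45.4 to 119 CPM in AML1-ETO LT-HSC, against 412 to 1614 CPM in control LT-HSC, with T and NK cell markers at 23.7 to 56.5 CPM, against 95.9 to 367 CPM. Neutrophil markers were at 2.76 to 46.2 CPM in AML1-ETO LT-HSC, against 51.8 to 169.7 CPM in control LT-HSC. The part of these lineages and of platelet RNA in the Tbxas1 result was not tested.

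The same comparison was made in GMP. Of the 9 members that passed the filter on low counts, 3 rose in AML1-ETO GMP (Ptgs1, Hpgds and Alox12) and none fell, where 9.43% of all 13981 genes tested were called, 5.47% as higher and 3.96% as lower. All 9 fitted fold changes were above 0, as were 6618 of all 13981 genes tested. The members' median was 1.16 on the log2 scale, against −0.03 over all genes tested. Of the 9, Lta4h was at 0.00 ± 0.13 (SE), with a ratio of means of 0.988. Alox5 was at 0.23 ± 0.41 and Alox5ap at 0.21 ± 0.12 (SE). The 3 that rose lay wholly above the controls, as did 10.6% of all genes tested, and no member lay wholly below, against 16.1% of all.

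Hpgds was at 35.3, 5.10 and 19.3 CPM in AML1-ETO GMP, against 0.910, 0.861, 0.325 and 0.291 CPM in control GMP. The AML1-ETO libraries spread widely, but the lowest of them was still above the highest control. The log2 fold change was 5.05 ± 0.76 (SE; edgeR adjusted p = 0.0118). Alox12 had 139, 233 and 2319 reads in AML1-ETO GMP, which is 9.14, 15.2 and 142 CPM, against 1, 0, 4 and 1 reads in control GMP. Most of its reads in AML1-ETO GMP came from replicate 3. The log2 fold change was 9.22 ± 1.34 (SE; edgeR adjusted p = 0.0110), and 7.0 without AML1-ETO GMP replicate 3 (edgeR adjusted p = 0.0108).

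Ptgs1 was at 66.9, 85.7 and 163 CPM in AML1-ETO GMP, against 46.0, 38.4, 35.9 and 54.4 CPM in control GMP. The groups did not overlap, with a log2 fold change of 1.29 ± 0.30 (SE; edgeR adjusted p = 0.0360), and 0.81 without AML1-ETO GMP replicate 3 (edgeR adjusted p = 0.0405). Tbxas1 was at 67.7, 19.6 and 123 CPM in AML1-ETO GMP, against 23.3, 27.4, 20.4 and 21.7 CPM in control GMP. Replicate 2 of AML1-ETO GMP was at the level of the controls, the other 2 were above, and Tbxas1 was not called (log2 fold change 1.62 ± 0.50, SE; edgeR adjusted p = 0.0860). Ptgs2 was lowest in the same library, at 25.5, 2.68 and 15.1 CPM in AML1-ETO GMP, against 7.33, 7.32, 6.30 and 5.18 CPM in control GMP (edgeR adjusted p = 0.308). Without AML1-ETO GMP replicate 2, both were called, with log2 fold changes of 2.05 for Tbxas1 and 1.64 for Ptgs2 (edgeR adjusted p = 0.00637 and 0.0115).

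No leukotriene gene was called in GMP, and Ltc4s could not be tested there. Alox5ap was at 97.7, 98.9 and 119.7 CPM in AML1-ETO GMP, against 93.7, 88.6, 102 and 85.0 CPM in control GMP (log2 fold change 0.21 ± 0.12, SE; edgeR adjusted p = 0.327). Lta4h was at 831, 1017 and 702 CPM in AML1-ETO GMP, against 912, 792, 823 and 914 CPM in control GMP, a log2 fold change of 0.00 ± 0.13 (SE; edgeR adjusted p = 0.998). Alox5 averaged 29.9 ± 18.1 CPM in AML1-ETO GMP and 25.8 ± 5.22 CPM in control GMP (SD, n = 3 and 4; edgeR adjusted p = 0.791). Mgst2 was at 110.1, 48.7 and 33.4 CPM in AML1-ETO GMP, against 45.0, 46.7, 34.3 and 49.1 CPM in control GMP, 1 library being high and the other 2 among the controls (edgeR adjusted p = 0.408). Ltc4s had 34, 59 and 0 reads in AML1-ETO GMP and 8, 11, 8 and 5 reads in control GMP, and it did not pass the filter on low counts there. Its level was 2.24, 3.86 and 0 CPM in AML1-ETO GMP, against 0.428, 0.592, 0.520 and 0.291 CPM in control GMP, so the groups overlapped, with 2 AML1-ETO libraries above every control and 1 at 0.

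The 3 GMP calls were lost without most single control GMP libraries, as were most calls over all genes. Of all genes, 1319 were called, against 131 to 209 without any 1 control GMP library. Control GMP libraries were more alike (Pearson r of log2 CPM 0.983 to 0.986) than AML1-ETO GMP libraries (0.847 to 0.868). The test takes 1 spread per gene for both groups. Ptgs1 was not called without any 1 of the 4 control GMP libraries (adjusted p 0.0914 to 0.128). Hpgds and Alox12 were not called without control GMP replicate 1, 3 or 4 (adjusted p 0.0513 to 0.0620 for Hpgds and 0.0533 to 0.0584 for Alox12). In 1 fit of all 14 samples, which share 1 estimate of the spread, Ptgs1 and Hpgds were not called (edgeR adjusted p = 0.325 and 0.0979) and Alox12 was.

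AML1-ETO GMP replicate 3, the library with the most Alox12 and Ptgs1, also held the most megakaryocyte and platelet RNA. The 12 markers of that lineage summed to 296, 216 and 2816 CPM in AML1-ETO GMP, against 104 to 147 CPM in control GMP. In that library Itga2b was at 1347 CPM, Treml1 at 364 CPM and Pf4 at 147 CPM, and Gp1bb was at 0. In AML1-ETO GMP replicates 1 and 2, the megakaryocyte and platelet sum, Alox12 and Ptgs1 were all above every control GMP library too. Replicate 1 had the higher sum of these (296 against 216 CPM) but less Alox12 (9.14 against 15.2 CPM) and Ptgs1 (66.9 against 85.7 CPM). In control LT-HSC that sum was 649 to 1241 CPM, with Alox12 at 0 to 6.56 CPM and Ptgs1 at 6.56 to 120 CPM. Mast cell and basophil markers summed to 2563 to 3615 CPM in AML1-ETO GMP, against 533 to 727 CPM in control GMP, with 10 to 11 of 12 and 8 of 12 at 1 CPM or more. Tpsab1 was at 0 in all 7 GMP libraries. Hpgds was highest in AML1-ETO GMP replicate 1 (35.3 CPM), where the summed mast cell and basophil markers were lowest (2563 CPM). Hpgds was lowest in AML1-ETO GMP replicate 2, where the summed mast cell and basophil markers were between those of the other 2 libraries. Within that list Fcer1a and Prss34 were lowest in replicate 2, and Cpa3 and Mcpt8 were highest there. Neutrophil markers summed to 3651, 606 and 693 CPM in AML1-ETO GMP, against 63.5 to 84.6 CPM in control GMP. Eosinophil markers summed to 3345 to 10856 CPM in AML1-ETO GMP, against 1057 to 2594 CPM. The 9 erythroid markers summed to 4683, 59.9 and 1409 CPM in AML1-ETO GMP, against 8.67 to 15.7 CPM in control GMP. Monocyte and macrophage markers summed to 2565, 482 and 908 CPM in AML1-ETO GMP, against 1312 to 1474 CPM in control GMP. The AML1-ETO libraries were in the same order as for Hpgds in the neutrophil, erythroid and monocyte sums, but not in the eosinophil sum. The part of any of these in the rise of Hpgds, Alox12 and Ptgs1 was not tested.

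**Figure D3:**
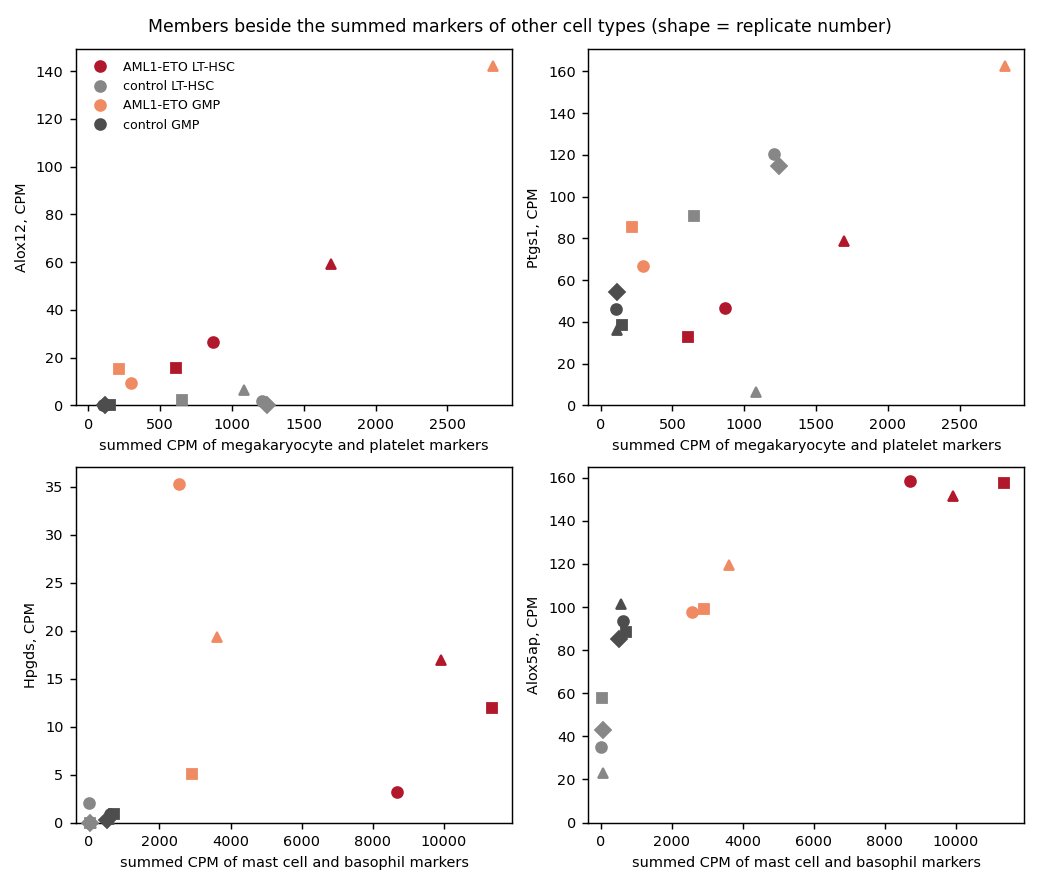
CPM of Alox12 and Ptgs1 against the summed CPM of 12 megakaryocyte and platelet markers (top), and of Hpgds and Alox5ap against that of 12 mast cell and basophil markers (bottom), in all 14 libraries, coloured by group and shaped by replicate number as in the plot of levels by library. AML1-ETO GMP replicate 3 is farthest right in both top panels, and the 3 AML1-ETO LT-HSC libraries are farthest right in both bottom panels.

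**Figure D4:**
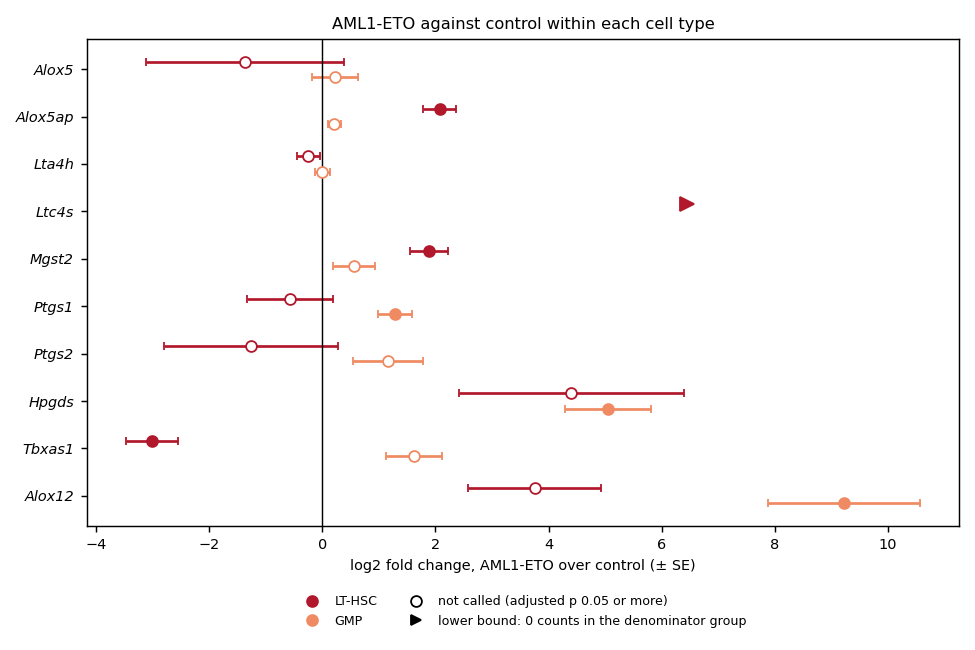
Log2 fold change of AML1-ETO over control for each member, in LT-HSC (dark red) and GMP (orange), with bars of ± SE. Filled points had an edgeR adjusted p under 0.05, and the arrow for Ltc4s in LT-HSC is a lower bound for counting error only. Alox5ap, Ltc4s, Mgst2 and Tbxas1 are called in LT-HSC, and Ptgs1, Hpgds and Alox12 in GMP.

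Whether AML1-ETO acted differently on a member in GMP than in LT-HSC was tested directly, as the AML1-ETO effect in GMP minus that in LT-HSC. Of the 10 members, 1 was called higher (Tbxas1) and 1 lower (Alox5ap), where 6.34% of 16116 genes were called, 3.43% as higher and 2.91% as lower. For Tbxas1 the difference was 4.69 ± 0.71 on the log2 scale (SE; edgeR adjusted p = 0.00241), beside an effect of 1.62 in GMP, not itself called, and −3.01 in LT-HSC in the fits of each cell type. For Alox5ap it was −1.78 ± 0.32 (SE; edgeR adjusted p = 0.00630), with 0.21 in GMP and 2.07 in LT-HSC. Both differences were called without any 1 of the 14 libraries. No difference was called for Ltc4s (adjusted p = 0.0861), Alox12 (5.53 ± 1.80, SE; adjusted p = 0.0882), Mgst2 (−1.23 ± 0.53; adjusted p = 0.199), Ptgs1 (1.92 ± 0.89; adjusted p = 0.239) or Hpgds (0.69 ± 1.97; adjusted p = 0.929). So the calls of Mgst2 and Ltc4s in LT-HSC, and of Ptgs1, Hpgds and Alox12 in GMP, were not shown to belong to 1 cell type. The difference for Ptgs1 was called without control LT-HSC replicate 3 (2.31; adjusted p = 0.00939), that for Alox12 without control LT-HSC replicate 4 (adjusted p = 0.0359) and that for Mgst2 without AML1-ETO GMP replicate 1 (−1.87; adjusted p = 0.0325).

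The change between cell types was next set out within each genotype, with all 14 samples in 1 fit. These comparisons share their samples with those above, so their values are given side by side and not as further support. In control mice 3 members were higher in GMP than in LT-HSC (Alox5ap, Lta4h and Ltc4s) and 2 lower (Tbxas1 and Alox12), where 24.5% of 16116 genes were called, 13.9% as higher and 10.6% as lower. In AML1-ETO mice 2 were higher in GMP (Lta4h and Tbxas1) and none lower, where 21.7% were called, 12.6% as higher and 9.15% as lower. With DESeq2, or in a fit of the AML1-ETO samples alone, Alox5ap was called lower there too. The members' median log2 fold change was 0.94 in AML1-ETO mice, against 0.00 over all genes tested, and 0.58 in control mice, against 0.02 over all. The GMP libraries lay wholly above the LT-HSC libraries for 2 members and wholly below for 2 in AML1-ETO mice, against 21.1% and 20.7% of all genes, and above for 3 and below for 1 in control mice, against 20.8% and 11.4%.

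Lta4h was the member with the steepest difference between the cell types that held in both genotypes. It averaged 850.2 ± 159 CPM in GMP and 96.9 ± 7.35 CPM in LT-HSC of AML1-ETO mice (SD, n = 3 each), a log2 fold change of 3.13 ± 0.21 (SE; edgeR adjusted p = 1.74e-06). In control mice it averaged 860.2 ± 62.6 CPM in GMP and 123 ± 28.5 CPM in LT-HSC (SD, n = 4 each), a log2 fold change of 2.80 ± 0.18 (SE; edgeR adjusted p = 5.58e-07). Neither call was lost without any 1 library, and the difference between the genotypes was not called (0.33 ± 0.25, SE; adjusted p = 0.529).

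For Alox5ap the contrast of the cell types differed by genotype. In control mice it was higher in GMP, at 92.2 ± 7.21 CPM, against 39.7 ± 14.5 CPM in LT-HSC (SD, n = 4 each), with a log2 fold change of 1.22 ± 0.21 (SE; edgeR adjusted p = 0.00107). In AML1-ETO mice all 3 GMP libraries were below all 3 LT-HSC libraries, at 105 ± 12.4 CPM in GMP and 156 ± 3.77 CPM in LT-HSC (SD, n = 3 each), with no call (−0.56 ± 0.24, SE; edgeR adjusted p = 0.116). It was called lower with DESeq2 (adjusted p = 0.0339) and with edgeR in a fit of the AML1-ETO samples alone (adjusted p = 0.0266). The 3 AML1-ETO LT-HSC libraries thus each had a higher Alox5ap level than any of the 7 GMP libraries.

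Tbxas1 ran the other way. In control mice it was lower in GMP, at 23.2 ± 3.02 CPM, against 135 ± 47.2 CPM in LT-HSC (SD, n = 4 each), with a log2 fold change of −2.54 ± 0.47 (SE; edgeR adjusted p = 0.00148). In AML1-ETO mice it was higher in GMP, at 70.2 ± 51.8 CPM, against 15.8 ± 8.80 CPM in LT-HSC (SD, n = 3 each), with a log2 fold change of 2.15 ± 0.54 (SE; edgeR adjusted p = 0.0106). The AML1-ETO groups overlapped, and the call was lost without AML1-ETO LT-HSC replicate 2 (adjusted p = 0.0571) or AML1-ETO GMP replicate 3 (1.48; adjusted p = 0.0546), and in a fit of the AML1-ETO samples alone (adjusted p = 0.0730). The AML1-ETO LT-HSC range of 7.99 to 25.3 CPM took in part of the control GMP range of 20.4 to 27.4 CPM.

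Among the rarer transcripts, Ltc4s was at 0 in control LT-HSC and at least 9.42-fold higher in control GMP (edgeR adjusted p = 0.0253). That bound covers counting error only, and the call was lost without control GMP replicate 2 or 3 (adjusted p = 0.0509 and 0.0513). Alox12 was lower in control GMP, with 6 reads in all, than in control LT-HSC (log2 fold change −4.81 ± 1.37, SE; edgeR adjusted p = 0.0203), although the groups overlapped at 0. That call was lost without control LT-HSC replicate 3 (adjusted p = 0.0519) or without control GMP replicate 1, 2 or 4 (adjusted p = 0.0586 to 0.0608). In AML1-ETO mice Alox12 did not differ beyond the spread (0.72 ± 1.14, SE; edgeR adjusted p = 0.736).

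Alox5 was higher in all 3 GMP than in all 3 LT-HSC libraries of AML1-ETO mice without passing the test (3.52 ± 1.32, SE; edgeR adjusted p = 0.0708). In control mice Mgst2 had a log2 fold change of 0.96 ± 0.35 (SE; edgeR adjusted p = 0.0576) and Ptgs1 one of −0.93 ± 0.58 (SE; edgeR adjusted p = 0.276). Without control LT-HSC replicate 3, both were called, at 1.26 for Mgst2 and −1.32 for Ptgs1 (edgeR adjusted p = 0.0160 and 0.00747). Hpgds was not called between the cell types of control mice (0.21 ± 1.31, SE; edgeR adjusted p = 0.940). Without control LT-HSC replicate 1, which leaves control LT-HSC at 0 reads and so no fitted fold to give, its adjusted p was 0.0104, with control GMP at 0.291 to 0.910 CPM.

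**Figure D5:**
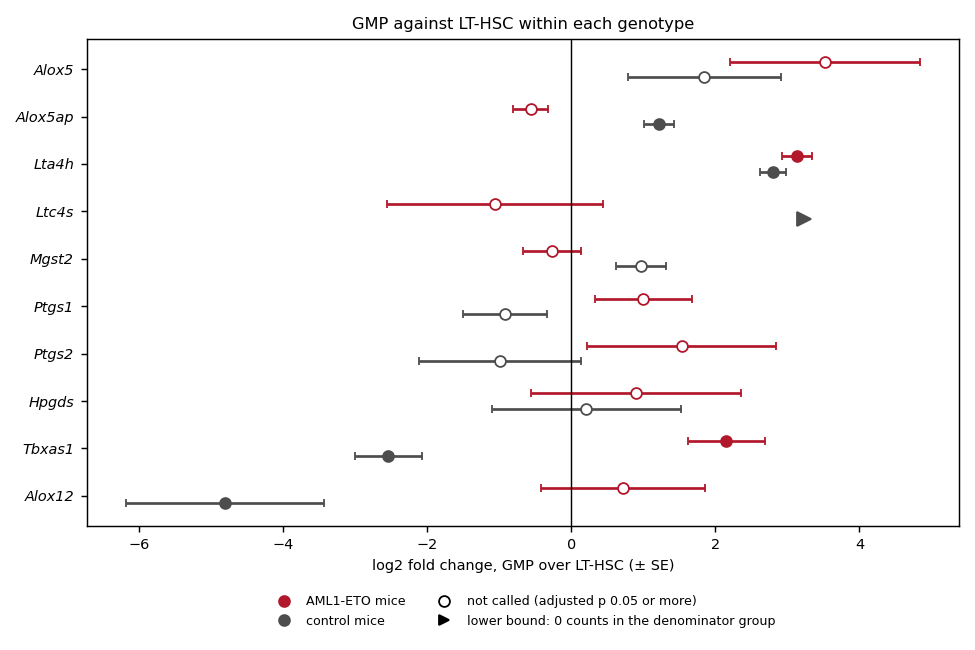
Log2 fold change of GMP over LT-HSC for each member, in AML1-ETO mice (red) and control mice (grey), with bars of ± SE. Filled points had an edgeR adjusted p under 0.05, and the arrow for Ltc4s in control mice is a lower bound for counting error only. Lta4h is above 0 in both genotypes, and Tbxas1 is below 0 in control mice and above 0 in AML1-ETO mice.

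The other genes of the pathway were read from a list of 67 symbols for arachidonate release, other lipoxygenases, other synthases, breakdown, transport and receptors. Of these symbols, 66 were in the table. In AML1-ETO LT-HSC, 4 of the 39 tested rose and 3 fell, beside the 7.59% and 4.69% of all genes, with a median log2 fold change of −0.43, against 0.03 over all genes. Ptgir, the prostacyclin receptor, was at 46.7, 78.2 and 88.2 CPM in AML1-ETO LT-HSC, against 1.34, 0, 0 and 0 CPM in control LT-HSC (log2 fold change 7.69 ± 1.27, SE; edgeR adjusted p = 0.00849). The others that rose were Mboat7, which returns arachidonate to phosphatidylinositol (1.31; adjusted p = 0.00501), Cotl1, a protein that binds 5-lipoxygenase (1.44; adjusted p = 0.0107), and the lysosomal phospholipase Pla2g15 (1.92; adjusted p = 0.0170). Pla2g12a, a secreted phospholipase, fell to 4.96, 4.22 and 7.52 CPM in AML1-ETO LT-HSC, against 29.5, 58.0, 77.0 and 34.7 CPM in control LT-HSC (−3.06 ± 0.44, SE; edgeR adjusted p = 0.00533). Faah, a fatty acid amide hydrolase, also fell (−2.06; adjusted p = 0.0211), as did Ggt5, which converts leukotriene C to D (−3.0; adjusted p = 0.0410). Of these 7, Mboat7 and Pla2g12a were called without any 1 library, and the other 5 were each lost without at least 1 library.

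In AML1-ETO GMP, 3 of the 38 listed genes tested rose and 1 fell, counts close to the 5.47% and 3.96% of all genes, with a median log2 fold change of 0.38, against −0.03 over all genes. The prostaglandin E receptor Ptger3 was at 21.0, 17.2 and 59.8 CPM in AML1-ETO GMP, against 8.57, 7.97, 10.1 and 8.61 CPM in control GMP (1.91 ± 0.42, SE; edgeR adjusted p = 0.0305). The lipoxygenase Alox12e, which is not the gene Alox12, was at 10.98, 1.90 and 11.3 CPM in AML1-ETO GMP, against 1.34, 1.18, 0.974 and 0.698 CPM in control GMP (2.95 ± 0.69, SE; edgeR adjusted p = 0.0360). Pla2g15 was higher by 0.50 ± 0.12 (SE, log2; edgeR adjusted p = 0.0337). The gene that fell was Cysltr1, a receptor of the leukotrienes made from leukotriene C, with 0 reads in AML1-ETO GMP, against 1.62 ± 0.75 CPM in control GMP (SD, n = 4; edgeR adjusted p = 0.0235). It was named after its values were seen, since its mean count was under 20. Its level was at least 25.2-fold lower in AML1-ETO GMP, a bound for counting error only. The call was lost for Alox12e and Pla2g15 on leaving out either of 2 libraries, and for Ptger3 on leaving out any of 3.

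Between the cell types, 8 of the 44 listed genes tested were higher in GMP than in LT-HSC of AML1-ETO mice and none lower, while 11 were higher and 8 lower in control mice. Over all genes, 12.6% were higher and 9.15% lower in AML1-ETO mice, and 13.9% higher and 10.6% lower in control mice. Those higher in both genotypes were Abcc4, a transporter that exports prostaglandins, Alox12e, Alox15, the leukotriene B receptor Ltb4r1, Ptges3 and Ptgr1. Ptgr1, an enzyme that inactivates leukotriene B, had a log2 fold change of 4.66 ± 0.53 in AML1-ETO mice and 3.04 ± 0.43 in control mice (SE; edgeR adjusted p = 4.77e-05 and 0.000204). Lower in GMP of control mice were the receptors Cysltr2, Ptger4 and Tbxa2r, the prostaglandin transporter Slco2a1, Faah, Pla2g12a, Pla2g16 and Pla2g6. Tbxa2r, the thromboxane receptor, had a log2 fold change of −5.19 ± 1.53 there (SE; edgeR adjusted p = 0.0244), in the same comparison in which Tbxas1 was lower. The AML1-ETO effect in GMP minus that in LT-HSC was called higher for Pla2g12a (2.97 ± 0.47) and Faah (2.71 ± 0.61) and lower for Ptgir (−5.26 ± 1.44) and Ltb4r1 (−4.72 ± 1.13). Their edgeR adjusted p-values were 0.00306 for Pla2g12a, 0.0186 for Faah, 0.0430 for Ptgir and 0.0235 for Ltb4r1. Ltb4r1 was at 12.5, 9.14 and 9.84 CPM in AML1-ETO LT-HSC, against 0, 1.23, 0 and 0 CPM in control LT-HSC, and at 66.9 ± 16.7 CPM in AML1-ETO GMP, against 51.1 ± 5.81 CPM in control GMP (SD, n = 3 and 4). The call for Ltb4r1 was lost without any 1 of 7 of the 14 libraries, and that for Ptgir without any 1 of 3.

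Genes most like each member in log2 CPM over the 14 libraries were found, as a description, among 12137 genes averaging 20 counts or more. Members were left out of these, as were genes whose symbol starts with Gm, ends in Rik or is a date. The libraries of a group share cell type and genotype, so these Pearson r values, with n = 14, are not of 14 independent points. Lta4h was most like Alas1 (r = 0.998), Pgd and Cldn15 (0.991 each), and Alox5ap like Sh3kbp1 (0.958), Dok3 (0.957) and Cd63 (0.952). Ltc4s was most like Rpl3l (0.991), Sp140 (0.944) and Tnfrsf23 (0.936), and Mgst2 like Haus3 (0.915), Morc2a (0.906) and Ubn1 (0.898). Hpgds was most like Tnip1 (0.934), Sema6d (0.931) and Nod1 (0.930). Tbxas1 was most like Gp9 (0.943), a platelet glycoprotein and 1 of the 12 megakaryocyte markers, followed by Aplp2 (0.931) and Traf4 (0.922). Ptgs1 was most like Gas2l1 (0.945), Ampd3 (0.935) and Ak1 (0.922), and Alox12 like Gadd45g (0.966), Furin (0.953) and Gucy1b1 (0.939). Ptgs2 was most like Yju2 (0.956), Calhm6 (0.944) and Pemt (0.929), and Alox5 like Slpi (0.938), Enoph1 (0.920) and Mgl2 (0.918).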

How the data were processed

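Genes were counted in 14 bulk RNA libraries. The authors deposited 1 table of raw counts, whole numbers not normalised, whose columns were mapped to samples by name. HISAT2 2.0.5, featureCounts 1.5.0-p3 and mm10 are named per the submitters' processing notes, the SMART-Seq and SMARTer stranded kits per the labels' protocols, which do not say which libraries each served. Neither the annotation nor the strand setting is given in the sources used here. The table has 54532 lines and 54427 distinct symbols, and totals of 13210952 to 19403864 counts. Replicates of a group differed by more than counting noise.

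Tests ran in edgeR 4.0.16 under R 4.3.3, and figures in Python 3.11.15. After filterByExpr and TMM scaling, the two-sided quasi-likelihood F test was applied to each gene, and p-values were adjusted by Benjamini-Hochberg across every gene that passed. AML1-ETO was compared with control on the 7 samples of a cell type (5 residual degrees of freedom). Other comparisons used all 14 samples (10 residual degrees of freedom). Biological coefficients of variation (common) were 0.785 for LT-HSC and 0.460 for GMP. Where a group was at 0, folds were bounded with 3 counts summed over it, a limit for counting error only because the reads have no molecular identifiers. The test was checked on simulated counts, with large changes set in well-expressed genes and the same spread in all groups. That check does not reach transcripts of a few CPM or groups of unequal spread.

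The members, lists and marker sets were chosen with earlier results of these data known. Named genes were the members, Runx1t1, listed pathway genes called in at least 1 comparison and averaging 20 counts or more in it, and the 3 genes most like each member. Tried as alternatives were other scalings and filters, DESeq2 1.42.0, limma 3.58.1, a replicate block, 1 fit of all samples and leaving out each library.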

Additional observations from a re-analysis of the deposited data

Results flagged for a closer look

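Hpgds, prostaglandin D synthase, had 2.04 CPM in control LT-HSC replicate 1 and 0 CPM in the other 3 control LT-HSC libraries, so that library stood apart by Dixon's 95% criterion. Beside 3 values of 0 any value above 0 meets that criterion, so it gives no ground for leaving the library out. It was the only one so placed of 19 member-by-group sets of 4 libraries tested, and chance places about 1 in 20. Without that library, which leaves control LT-HSC at 0, Hpgds was called higher in AML1-ETO LT-HSC (edgeR adjusted p = 0.0209) and in control GMP (edgeR adjusted p = 0.0104).

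The effect of AML1-ETO differed between the cell types for Alox5ap, by −1.78 on the log2 scale (effect in GMP minus effect in LT-HSC; edgeR adjusted p = 0.00630). All 3 AML1-ETO LT-HSC libraries were above the 4 controls, at 151 to 158 CPM against 23.1 to 57.6 CPM, while the GMP groups overlapped.

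For Tbxas1 the effect of AML1-ETO differed by 4.69 on the log2 scale (edgeR adjusted p = 0.00241). All 3 AML1-ETO LT-HSC libraries were below the 4 controls, at 7.99 to 25.3 CPM against 99.0 to 202 CPM, and in GMP 2 of 3 AML1-ETO libraries were above all controls.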

How the results depend on the processing

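Of the 16 calls of members, 102 of 110 values under other scalings, filters, fits and tools and 106 of 129 values without 1 library stayed on the same side of the threshold, and none changed sign. In LT-HSC, AML1-ETO against control gave 1791 called genes, 3249 with DESeq2, 525 with the replicate block and 3166 in 1 fit of all 14 samples. In GMP it gave 1319 called genes, 816 without a filter, 2953 with DESeq2, 112 with the block and 458 in the fit of all samples, and the called members numbered 3, but 1 with the block and 1 in the fit of all samples. With DESeq2 the called members were 4, not 2, for GMP against LT-HSC in AML1-ETO mice, and 4, not 2, for the difference of the effect. That difference had 1021 called genes, 2087 with DESeq2 and 508 with the block. Leaving out 1 library at a time gave 2 to 5 called members in LT-HSC (of all genes, 334 to 2376), 0 to 5 in GMP (131 to 3514), 1 to 2 between cell types in AML1-ETO mice (2092 to 3298), 3 to 6 in control mice (2660 to 4584) and 2 to 3 for the difference (471 to 1477). The GMP count of all genes was 131 to 209 without any 1 control GMP library and 2477 and 3514 without AML1-ETO GMP replicate 1 and 2, and the LT-HSC count was 534, 334 and 689 without AML1-ETO LT-HSC replicate 1, 2 and 3 and 1147 without control LT-HSC replicate 4. For the difference, Ggt5 was at 1.80, uncalled, and −5.53 to 2.57 without 1 library, reversing without AML1-ETO GMP replicate 1 (adjusted p = 0.0467). The cause of these changes was not tested.

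The share of calls that were higher moved by over 10 points in LT-HSC, 61.8% by TMM, to 51.7% with upper-quartile factors and 47.0% with DESeq2. In control mice it moved, from GMP over LT-HSC, to 44.9% with DESeq2 size factors and 41.6% with DESeq2, against 56.9% by TMM. In AML1-ETO mice it was 47.4% with DESeq2, against 57.9%, and for the difference of the effect 42.1% with limma-voom, against 54.1%. In GMP it was 58.0%, and 68.1% without a filter, 95.5% with the block and 86.0% in the fit of all samples, and 44.1% to 91.1% without 1 library. The median of all genes shifted to −0.10 in LT-HSC and −0.11 between cell types in AML1-ETO mice with upper-quartile factors, and to −0.12 in control mice with DESeq2 size factors. The labels give groups the same replicate numbers without saying what they share, so the numbers were not taken to pair the samples. Across genotypes, deviations of same-numbered samples correlated at −0.0765 to 0.0359. In AML1-ETO mice every sample correlated best with its own number across cell types (0.0910 to 0.161, against −0.0920 to −0.0213 for other numbers), a hint from the data only. In control mice these values were −0.0388 to 0.0182 for the same number and −0.0828 to 0.0878 for other numbers. Whether the LT-HSC and GMP libraries of a number are paired was thus not settled. With the replicate block, Ltc4s (adjusted p = 0.251) and Mgst2 (0.0775) were not called in LT-HSC and Alox12 was (0.0496). In GMP, Ptgs1 (0.182) and Hpgds (0.102) were not called, and between cell types in control mice Ltc4s was not (0.146) and Mgst2 was (0.0464). With 3 or 4 libraries a group and a coefficient of variation of 0.785 in LT-HSC, transcripts of a few CPM such as Ltc4s, Hpgds and Alox5 are measured with wide error.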
